A study of Caenorhabditis elegans with 2 samples.

Results

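Calls at the nuclear tRNA genes of the nematode Caenorhabditis elegans were examined in a chromatin immunoprecipitation sequencing (ChIP-seq) map of the protein ZK546.5. The set comprised all genes of annotated biotype tRNA on the nuclear chromosomes of genome build ce11, 612 of 46890 nuclear genes, of which 19973 were protein-coding. The worms were third-stage (L3) larvae of strain OP231, sampled whole and with both sexes pooled. They carried the mutation unc-119(ed3) III and the inserted transgene wgIs231, from which ZK546.5 is made with GFP and FLAG joined to its C terminus. The 2 biological replicates form 1 group, and both were called against 1 shared control file. The labels gave no second condition, no promoter for the transgene and no age, and whole larvae mix all tissues. No test over samples was possible with 2 replicates of 1 group, so shares are described beside those of each replicate and, for the main counts, of all nuclear genes.

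The genes of tRNAs are short, and RNA polymerase III transcribes them from a promoter inside the gene. The factor TFIIIC binds 2 internal elements, the A box and the B box, after which TFIIIB assembles just upstream of the gene and recruits the polymerase. Many tRNA genes exist as identical copies, and the sources used here do not say how reads that fit several copies were placed.

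The loci that led the lists are shown first, since the calls sat on the gene at some of them and beside it at others. Sequences are from the RefSeq genome of the ce11 assembly, 5′ to 3′, with the annotated tRNA gene in capitals and flanking bases in lower case. The first 2 windows hold the 3 genes that had a peak of the submitters' thresholded set. The C18A11.t2 window is chrX:8036645-8036797 on the minus strand, and the M02F4 window is chrX:3035956-3036255 on the plus strand, with M02F4.t2 (minus strand) at its left and M02F4.t1 (plus strand) at its right.
C18A11.t2: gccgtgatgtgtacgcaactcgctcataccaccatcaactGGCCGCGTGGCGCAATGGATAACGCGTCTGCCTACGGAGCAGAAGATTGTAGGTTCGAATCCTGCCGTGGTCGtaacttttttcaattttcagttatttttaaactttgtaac
M02F4.t2 and M02F4.t1: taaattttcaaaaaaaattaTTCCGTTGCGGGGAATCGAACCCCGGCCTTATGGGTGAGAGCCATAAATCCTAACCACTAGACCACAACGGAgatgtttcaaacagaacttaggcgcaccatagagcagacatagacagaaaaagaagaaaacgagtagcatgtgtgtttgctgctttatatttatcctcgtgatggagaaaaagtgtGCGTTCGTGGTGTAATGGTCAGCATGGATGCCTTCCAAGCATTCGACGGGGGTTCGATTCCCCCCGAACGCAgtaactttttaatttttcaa
The next 3 windows hold loci outside the thresholded set that had high ranks in both replicates or in 1 of them. They are chrX:12563748-12563899 (plus strand) for R01H5.t1, chrII:12494701-12494854 (plus strand) for T21B4.t1 and chrX:13046363-13046662 (plus strand) for the divergent pair C53C7.t2 (minus strand, left) and C53C7.t1 (plus strand, right).
R01H5.t1: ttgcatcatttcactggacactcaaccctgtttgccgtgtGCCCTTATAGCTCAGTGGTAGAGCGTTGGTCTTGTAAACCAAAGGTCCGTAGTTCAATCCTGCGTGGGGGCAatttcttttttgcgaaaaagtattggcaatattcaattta
T21B4.t1: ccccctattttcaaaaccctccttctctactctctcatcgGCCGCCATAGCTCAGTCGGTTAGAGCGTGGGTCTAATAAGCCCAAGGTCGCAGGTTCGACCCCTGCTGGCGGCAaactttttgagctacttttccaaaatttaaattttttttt
C53C7.t2 and C53C7.t1: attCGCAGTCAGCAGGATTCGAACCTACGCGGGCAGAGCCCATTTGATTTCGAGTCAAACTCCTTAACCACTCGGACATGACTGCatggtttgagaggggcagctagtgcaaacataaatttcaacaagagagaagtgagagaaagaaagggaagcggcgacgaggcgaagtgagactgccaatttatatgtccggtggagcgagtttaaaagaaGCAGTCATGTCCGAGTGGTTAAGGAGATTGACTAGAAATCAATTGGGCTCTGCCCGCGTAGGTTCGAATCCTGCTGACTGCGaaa
The pooled summit, the base of highest signal in a call, was base 233 of the M02F4 window, inside M02F4.t1. It was base 77 of the R01H5.t1 window and base 73 of the T21B4.t1 window, again inside the gene, and base 111 of the C53C7 window, between its 2 genes. The summit nearest to C18A11.t2 lay outside the printed window, beyond the 3′ end of the gene. The word GTTCGANNC, a form of the B box, was present on the gene's strand in all of these genes but R01H5.t1.

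Each replicate had a list of 30000 calls, as did the pooled reads of both, and the submitters' thresholded set held 261 peaks, 235 of them nuclear and 28 of those on X. Calls were ranked within a list by their deposited signal value, with rank 1 the strongest. The lists end at a fixed number of calls, so their weaker part need not be binding, and 27.2% of all nuclear bases lay within 500 bp of a pooled summit. Read depth is unknown because the files hold no read counts. A gene was counted as having a call where a summit lay within 500 bp of its 5′ end. Each range in brackets after a share is its 95% exact binomial interval (Clopper-Pearson), which covers counting error only, and genes that share a call or a library are not independent.

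The thresholded set marked 3 tRNA genes, at 2 peaks. A thresholded summit lay within 500 bp of 3 of the 612 tRNA genes (0.490%, 0.101 to 1.43), against 0.706% of all nuclear genes and 1.17% of protein-coding genes. The interval includes both of those values, so the tRNA share was not resolved from the background, and both peaks were on X. The shares were 3.76% for snoRNA genes (13 of 346, 2.02 to 6.34) and 3.10% for snRNA genes (4 of 129, 0.851 to 7.75), and the interval of the tRNA genes lay below that of the snoRNA genes and overlapped that of the snRNA genes. Among the strongest 261 calls of each replicate alone, replicate 1 marked 3 tRNA genes (0.490%), against 0.567% of all nuclear genes, and replicate 2 marked 1 (0.163%), against 0.68%.

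The higher of the 2 peaks was at C18A11.t2, a tRNA-Arg gene at chrX:8036685-8036757 on the minus strand, outside any intron of a coding gene. Its call was rank 88 in replicate 1 (signal 60.6), rank 106 in replicate 2 (signal 57.5) and rank 87 in the pooled list (signal 129). Both replicates thus placed it among their strongest calls. The summits were 316 bp, 333 bp and 355 bp downstream of the 5′ end in replicate 1, replicate 2 and the pooled list, each past the end of the gene. From the pooled summit, the 5′ end of the ncRNA gene C18A11.13 was 272 bp away and that of the nearest coding gene, xol-1, a switch gene of sex determination, was 4911 bp away.

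The other peak was at the divergent genes M02F4.t1 (tRNA-Gly, chrX:3036164-3036235, plus strand) and M02F4.t2 (tRNA-Glu, chrX:3035976-3036047, minus strand). The call was rank 197 in replicate 1 (signal 33.1), rank 320 in replicate 2 (signal 28.4) and rank 204 in the pooled list (signal 62.4). The summit lay 39 bp downstream of the 5′ end of M02F4.t1 in replicate 1, 4 bp upstream in replicate 2 and 24 bp downstream in the pooled list. For M02F4.t2 the same summits were 156 bp, 113 bp and 141 bp upstream. The call therefore sat at the start of M02F4.t1 in both replicates, 1885 bp from the nearest coding 5′ end, that of M02F4.2. The genome holds 29 identical copies of M02F4.t1 and 20 of M02F4.t2, counting each gene itself, and 10 of C18A11.t2.

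The tRNA genes next outside the 500 bp limit of the thresholded set were ZK994.t2 (tRNA-Lys, on V) at 917 bp, C18A11.t1 (tRNA-Pro, on X) at 1105 bp and W02H3.t1 (tRNA-Leu, on X) at 1494 bp. No gene therefore sat close to the limit on its outer side.

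Down the full lists the replicates parted. A pooled call lay at 244 of 612 tRNA genes (39.9%, 36.0 to 43.9), against 34.8% of all nuclear genes and 31.2% of protein-coding genes. In replicate 1 the count was 196 (32.0%, 28.3 to 35.9), against 34.8% of all nuclear genes and 31.2% of protein-coding genes. In replicate 2 it was 289 (47.2%, 43.2 to 51.3), against 33.4% and 31.2%. The tRNA share was thus above both other shares in replicate 2 and in the pooled list. In replicate 1 it lay between them, and its interval included both. The nuclear genes include 15363 piRNA genes, of which 46.1% had a call in replicate 1. The background itself differed little between the replicates. On each of the 6 nuclear chromosomes the tRNA share was higher in replicate 2 than in replicate 1.

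The strongest 3000 calls of each list showed the same split. They marked 53 tRNA genes in the pooled list (8.66%, 6.55 to 11.2), against 5.65% of all nuclear genes. In replicate 1 they marked 24 (3.92%, 2.53 to 5.78), against 5.02% of all nuclear genes. In replicate 2 they marked 60 (9.80%, 7.56 to 12.4), against 4.87% of all nuclear genes. Neighbouring genes can share a call, so these counts stood for 42 distinct calls in the pooled list, 21 in replicate 1 and 52 in replicate 2. Among the strongest 1000 calls, replicate 2 marked 30 tRNA genes (4.90%), against 2.03% of all nuclear genes, and 12 of the 30 had no call in replicate 1. Replicate 1 marked 12 (1.96%), close to the 1.93% of all nuclear genes, and 1 of these had no call in replicate 2. The pooled list marked 18 (2.94%), against 2.15%.

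**Figure D1:**
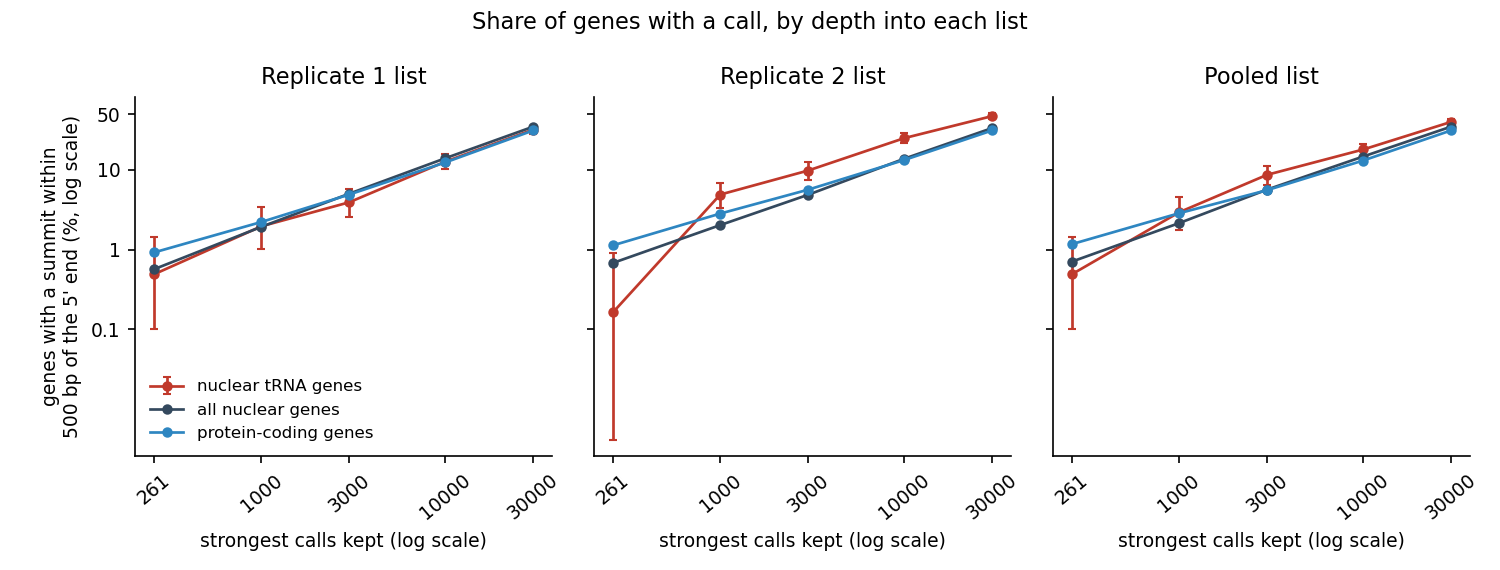
Share of genes with a summit within 500 bp of the 5′ end (percent, log scale) against the number of strongest calls kept (log scale) in the replicate 1, replicate 2 and pooled lists, for tRNA genes, all nuclear genes and protein-coding genes; bars on tRNA points are 95% exact binomial intervals. In replicate 2 the tRNA line lies above the others from 1000 calls on, ending at 47.2% against 33.4% of all genes, while in replicate 1 it follows them and ends at 32.0% against 34.8%.

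Most tRNA genes marked in replicate 1 were also marked in replicate 2. The same shared genes were a smaller part of those marked in replicate 2, which marked more tRNA genes. A call was present in both replicate lists at 120 tRNA genes (19.6%, 16.5 to 23.0), against 15.2% of all nuclear genes. Another 76 had a call in replicate 1 only (12.4%, against 19.5% of all nuclear genes), 169 in replicate 2 only (27.6%, against 18.2%) and 247 in neither (40.4%, against 47.1%). The shared genes made up 61.2% of the tRNA genes marked in replicate 1, against 43.8% over all nuclear genes. They made up 41.5% of those marked in replicate 2, against 45.6%. Replicate 2 marked 47.2% of the tRNA genes and 33.4% of all nuclear genes. The higher share of replicate 1 genes also marked in replicate 2, and of genes in both lists, therefore does not by itself show closer agreement at tRNA genes. At 69 of the 120 shared genes the summits of the 2 replicates were within 200 bp of each other (57.5%), against 54.2% of all nuclear genes marked in both. The ranks in the 2 lists had a Spearman's rho of 0.26 over the 120 tRNA genes and 0.21 over the 7132 nuclear genes, as a description across genes that share libraries.

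A call among the strongest 3000 of both replicates was present at 8 tRNA genes (1.31%), close to the 1.17% of all nuclear genes. They were C18A11.t2, M02F4.t1, M02F4.t2, R01H5.t1, T21B4.t1, R11.t1, F46G11.t2 and M01E5.t1. The last 2 were chosen for naming after their values were seen. F46G11.t2, a tRNA-Pro gene on X, was rank 1347 in replicate 1 and rank 1900 in replicate 2. M01E5.t1, a tRNA-Lys gene on chromosome I, was rank 563 in replicate 1 and rank 1324 in replicate 2, but only rank 8256 in the pooled list. Its replicate summits lay 331 bp and 36 bp upstream of the 5′ end, so the 2 replicates did not mark the same position.

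**Figure D2:**
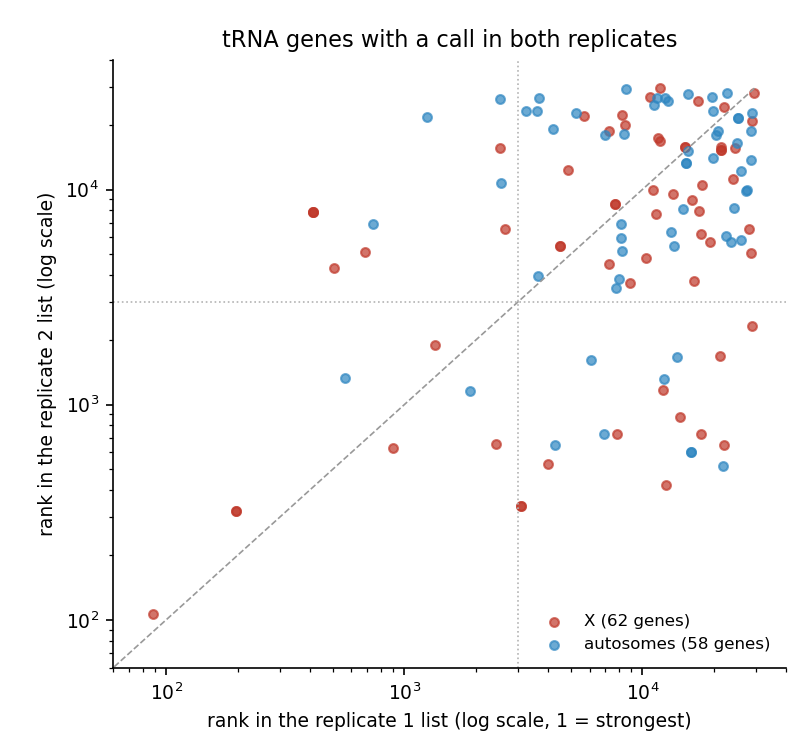
Rank of the strongest call in replicate 2 against that in replicate 1 (both log scales, 1 the strongest) for the 120 tRNA genes with a call in both lists, 62 on X and 58 on autosomes; the dashed line marks equal ranks and the dotted lines rank 3000. Most points fill the weak upper right part, and 8 genes fall inside the strongest 3000 of both.

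Below the thresholded genes, the strongest loci fell into a group that ranked high in both replicates and a group that ranked high in 1. R01H5.t1 (tRNA-Thr, chrX:12563788-12563859, plus strand) was rank 896 in replicate 1 (signal 22.5), rank 629 in replicate 2 (signal 21.5) and rank 374 in the pooled list (signal 43.3). Its summits lay 51 bp downstream, 31 bp upstream and 36 bp downstream of the 5′ end in the same order, so it was marked on the gene or just before it throughout. The 5′ end of the ncRNA gene R01H5.2 was 46 bp from the pooled summit, and the nearest coding 5′ end was 10949 bp away.

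T21B4.t1 (tRNA-Ile, chrII:12494741-12494814, plus strand) lies in an intron of the collagen gene col-85, on the opposite strand. It was rank 1891 in replicate 1 (signal 19.5), rank 1158 in replicate 2 (signal 18.1) and rank 412 in the pooled list (signal 41.5). The summits lay 5 bp, 41 bp and 32 bp downstream of the 5′ end, all inside the gene. The 5′ end of the ncRNA gene T21B4.19 was 89 bp from the pooled summit and that of col-85 was 322 bp away, and 3 other genes in all had a 5′ end within 500 bp. A call for one of those genes cannot be told apart from a call for the tRNA gene by distance alone. R11.t1 (tRNA-Tyr, chrX:16209769-16209852, minus strand) was rank 2432 in replicate 1, rank 659 in replicate 2 and rank 582 in the pooled list, with summits 12 bp, 37 bp and 33 bp upstream of the 5′ end.

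Other loci had a stronger call in replicate 2 than in replicate 1, or a call there only. C04E7.t1 (tRNA-Leu, on X) was rank 12510 in replicate 1 (signal 12.4), rank 425 in replicate 2 (signal 24.5) and rank 488 in the pooled list (signal 39.6). The divergent tRNA-Ser pair C53C7.t1 and C53C7.t2 shared a call of rank 3088 in replicate 1 (signal 17.7), rank 338 in replicate 2 (signal 27.7) and rank 489 in the pooled list (signal 39.5). F22G12.t1 (tRNA-Val, on chromosome I, in an intron of F22G12.4) was rank 6918 in replicate 1, rank 732 in replicate 2 and rank 473 in the pooled list. W09D6.t1 and W09D6.t2, tRNA-Pro genes on III in an intron of rsa-2, a gene named for spindle assembly, had no call in replicate 1, rank 306 in replicate 2 (signal 29.2) and rank 790 in the pooled list (signal 34.8). At these 4 loci replicate 2 alone had the call within its strongest 1000, and the summit was within 105 bp of the 5′ end in the pooled list.

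A smaller set was strong in replicate 1. The 3 tRNA-Pro genes C16B8.t1, C16B8.t2 and C16B8.t3 on X shared 1 call of rank 412 in replicate 1 (signal 26.0), rank 7830 in replicate 2 (signal 11.1) and rank 630 in the pooled list (signal 36.8), with the pooled summit 247 bp past the start of C16B8.t1. C02D4.t1 (tRNA-Ile, on X, in an intron of the receptor gene ser-2) was rank 687 in replicate 1, rank 5108 in replicate 2 and rank 594 in the pooled list, where its summit lay 459 bp downstream. F02D10.t2 (tRNA-Ser, on X) was rank 602 in replicate 1, had no call in replicate 2 and was rank 754 in the pooled list, with the summit 282 bp upstream. At these 3 loci the pooled summit stood off the tRNA genes. Among the loci named here, F53F8.t1 (tRNA-Cys, on V) was also strong in replicate 1 but marked at its start, at rank 736 in replicate 1, 6899 in replicate 2 and 1015 in the pooled list, with the pooled summit 20 bp past the start of the gene. The highest tRNA gene on IV was K08E7.t1 (tRNA-Lys), with rank 3660 in replicate 1, 3942 in replicate 2 and 1760 in the pooled list and a pooled summit 8 bp into the gene.

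Calls at tRNA genes were closer to the 5′ end than calls at other genes. Of the 244 tRNA genes with a pooled call, 87 had the strongest summit within 100 bp of the 5′ end (35.7%), against 21.7% of the 16311 nuclear genes with a call. The share was 29.1% in replicate 1, against 21.7% over all genes, and 34.9% in replicate 2, against 22.0%. An even spread over the window would give 20.1%. Among genes with a call the difference was thus present in both replicates, although its size varied. The strongest pooled summit was upstream of the 5′ end at 52.0% of the tRNA genes with a call, inside the gene at 16.8% and past its 3′ end at 31.1%. For a gene with a median length of 72 bp the inside class is narrow, so these shares are not comparable with those of longer genes.

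Counting only summits within 100 bp, a distance added after the data were seen, gave a larger contrast with the background in the pooled list and replicate 2. A pooled summit lay that close to 92 of 612 tRNA genes (15.0%, 12.3 to 18.1), against 8.19% of all nuclear genes. Replicate 1 had 58 (9.48%, 7.28 to 12.1), against 8.09% of all nuclear genes, and replicate 2 had 114 (18.6%, 15.6 to 21.9), against 8.11%. In the strongest 3000 calls the pooled list had 27 (4.41%, 2.93 to 6.35), against 1.3% of all nuclear genes. Replicate 1 had 8 (1.31%, 0.566 to 2.56), against 1.14%, and replicate 2 had 32 (5.23%, 3.60 to 7.30), against 1.24%. At this short distance replicate 1 was close to the background with its interval including it, and replicate 2 stood above it at both depths.

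**Figure D3:**
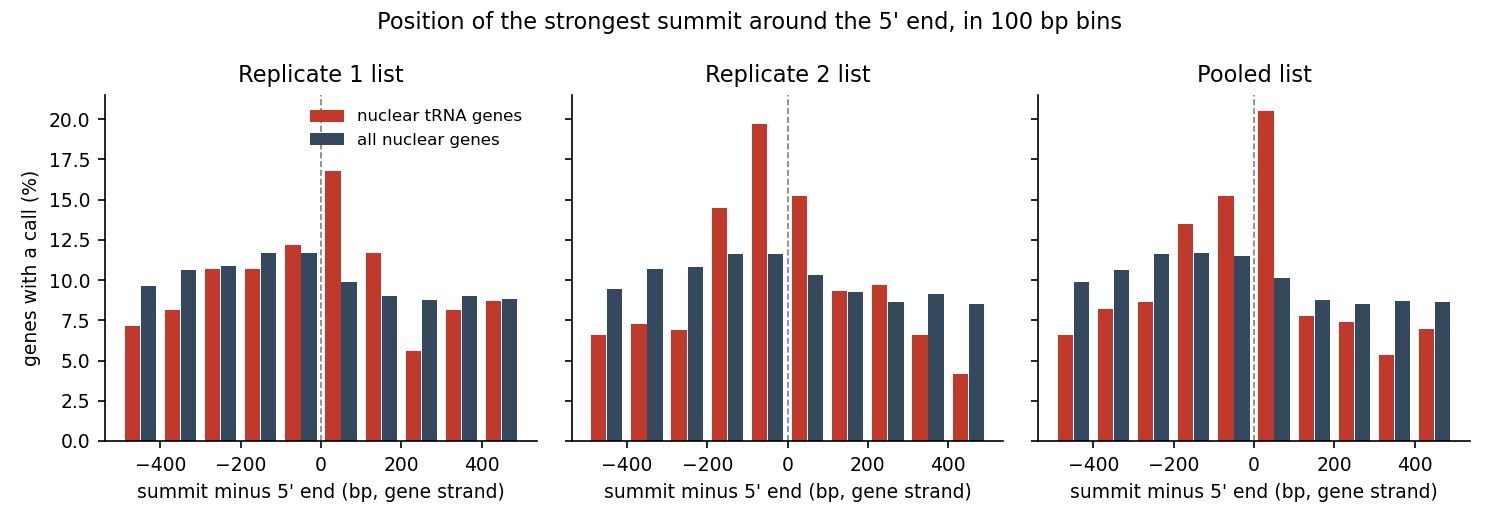
Position of the strongest summit relative to the 5′ end (bp along the gene's strand, negative upstream, bins of 100 bp) as a percent of the genes with a call, for tRNA genes and all nuclear genes in each list. The tallest tRNA bin is the 100 bp downstream of the 5′ end in replicate 1 (16.8%) and the pooled list (20.5%) and the 100 bp upstream in replicate 2 (19.7%), while no bin of all genes is above 11.7%.

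Where a call was present, its rank was close to that at other genes in replicate 1 and the pooled list, and stronger in replicate 2. The median rank of the strongest pooled call was 11595 at tRNA genes and 12242 over all nuclear genes with a call. It was 12815 and 13008 in replicate 1, and 9220 and 12565 in replicate 2, tRNA genes before all genes. The lowest pooled signal at a tRNA gene was 13.0, the median 19 and the highest 129, against a median of 18.7 and a highest value of 1410 over all nuclear genes. The strongest tRNA call, at C18A11.t2, was thus far below the top of the list.

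The genes were unevenly placed in the genome. X held 276 of the 612 tRNA genes (45.1%), although it held 12.8% of all nuclear genes, and the autosomes held 336. Introns of coding genes held 287 tRNA genes, 95 of them on X and 192 on autosomes, and 325 were outside. Of those in introns, 165 were on the host's strand and 122 on the opposite one.

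On X the tRNA genes were marked more often than other genes of X in both replicates. A replicate 1 call lay at 102 of 276 tRNA genes on X (37.0%, 31.2 to 42.9), against 26.1% of all genes on X. In replicate 2 the share was 127 of 276 (46.0%, 40 to 52.1), against 29.4%, and in the pooled list 117 of 276 (42.4%, 36.5 to 48.5), against 26.4%. In the strongest 3000 calls the tRNA shares on X were 5.80% in replicate 1, 10.9% in replicate 2 and 12.0% in the pooled list, against 3.24%, 4.02% and 4.02% of all genes on X in the same lists. The interval of the tRNA share lay above the value for all genes on X in each of these 6 comparisons. The margin was narrowest in the strongest 3000 calls of replicate 1, at 3.35 to 9.24 against 3.24%. The 24 tRNA genes marked there over all chromosomes stood for 21 distinct calls. The interval takes no account of genes that share a call, so that comparison is not secure. The background on X was lower than on the autosomes, where 36.0% of all genes had a pooled call.

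On the autosomes the tRNA share was below that of all genes in replicate 1 and above it in replicate 2. In replicate 1, 94 of 336 autosomal tRNA genes had a call (28.0%, 23.2 to 33.1), against 36.0% of all autosomal genes. The 32.0% of autosomal protein-coding genes lay inside that interval. In replicate 2 the count was 162 (48.2%, 42.8 to 53.7), against 34.0% of all and 31.7% of protein-coding autosomal genes. The pooled list had 127 (37.8%, 32.6 to 43.2), against 36.0% and 31.9%. The difference between X and the autosomes among tRNA genes changed sign accordingly, at 8.98 percentage points in replicate 1, -2.20 in replicate 2 and 4.59 in the pooled list. The SD between replicates was 7.91 points, so over the full lists no difference between X and the autosomes was resolved for tRNA genes.

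Among stronger calls X had the higher tRNA share in both replicates. In the strongest 1000 calls the shares on X and the autosomes were 3.62% and 0.595% in replicate 1, and 6.52% and 3.57% in replicate 2. In the strongest 3000 they were 5.80% and 2.38% in replicate 1, and 10.9% and 8.93% in replicate 2. In the strongest 10000 they were 16.3% and 9.82% in replicate 1, and 26.8% and 23.5% in replicate 2. The direction was the same at these 3 depths, but the 95% intervals for X and the autosomes overlapped in each case. The median rank of the genes with a call was also stronger on X, at 11762.5 against 14157 on the autosomes in replicate 1 and 8563 against 10709.5 in replicate 2.

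By chromosome, the pooled share ran from 32.1% on V (25 of 78) and 34.4% on III (22 of 64) to 42.3% on IV (30 of 71) and 42.4% on X. II had 42.1% (24 of 57) and I had 39.4% (26 of 66). The exact intervals of neighbours in this order overlapped, so the order itself was not resolved. All genes on the same chromosome had 27.3% on V, 34.2% on III and 35.0% on I, each inside the tRNA interval of that chromosome. On IV, where most genes are piRNA genes, the pooled tRNA share was close to the 42.5% of all genes. The replicates differed there, with 38% in replicate 1, against 42.6% of all genes on IV, and 60.6% in replicate 2 (48.3 to 72), against 37.7%. A call in both lists was present at 31.0% of the tRNA genes on IV (20.5 to 43.1), against 19.4% of all genes there. On II the pooled tRNA share was above the 27.1% of all genes there, with an interval of 29.1 to 55.9. In replicate 1 both shares on II were 28.1%, and in replicate 2 the tRNA share was 54.4% (40.7 to 67.6), against 28.7%. On V the tRNA share was 21.8% in replicate 1, against 27.2% of all genes there, and 38.5% in replicate 2, against 27.3%.

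Location in an intron also gave different answers in the replicates. In replicate 1, 74 of 287 tRNA genes in introns had a call (25.8%, 20.8 to 31.3), against 122 of 325 outside introns (37.5%, 32.3 to 43.1). In replicate 2 the shares were 47.7% (137 of 287) in introns and 46.8% (152 of 325) outside. In the pooled list they were 35.5% and 43.7%. Over all nuclear genes the shares were 34.8% in replicate 1, 33.4% in replicate 2 and 34.8% in the pooled list. The difference, in introns minus outside, was -11.8 points in replicate 1, 0.966 in replicate 2 and -8.15 in the pooled list, with an SD of 8.99 points between the replicates. Over all chromosomes the lower share in introns was thus seen in replicate 1 and not in replicate 2. A call in both lists was present at 14.6% of the genes in introns (42 of 287, 10.8 to 19.3) and 24% of those outside (78 of 325, 19.5 to 29), with intervals that did not overlap. The share of all nuclear genes, 15.2%, lay inside the interval for introns and below that for genes outside.

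Over the full lists the share on the autosomes was lower in introns in both replicates, and on X the replicates went opposite ways. In autosomal introns it was 22.4% in replicate 1, against 35.4% outside, and 44.8% in replicate 2, against 52.8% outside. On X it was 32.6% in introns in replicate 1, against 39.2% outside, and 53.7% in introns in replicate 2, against 42.0% outside. The intervals overlapped in each of these 4 comparisons. Among stronger calls the lower share in autosomal introns was not seen in replicate 2. In the strongest 10000 calls the shares in autosomal introns and outside were 6.77% and 13.9% in replicate 1, and 24.5% and 22.2% in replicate 2. In the strongest 3000 they were 1.56% and 3.47% in replicate 1, and 9.38% and 8.33% in replicate 2. A call in both lists was present at 10.9% of the genes in autosomal introns (21 of 192, 6.90 to 16.2) and 25.7% of autosomal genes outside (37 of 144, 18.8 to 33.6), and at 22.1% and 22.7% of those on X. Among all genes it was present at 15.9% on the autosomes and 10.4% on X. In the pooled list the share on X was 38.9% in introns (37 of 95) and 44.2% outside (80 of 181). On the autosomes it was 33.9% in introns (65 of 192) and 43.1% outside (62 of 144). The pooled shares of all genes were 26.4% on X and 36.0% on the autosomes. Genes on the host's strand had a pooled call in 35.8% of cases and genes on the opposite strand in 35.2%, with 24.8% and 27.0% in replicate 1 and 47.9% and 47.5% in replicate 2.

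**Figure D4:**
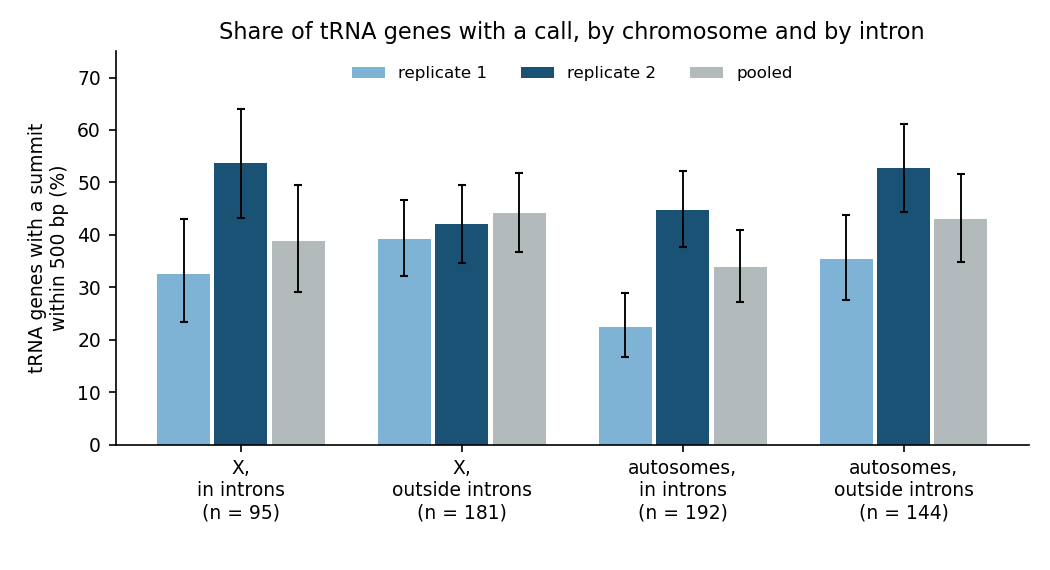
Share of tRNA genes with a summit within 500 bp (percent), for X and autosomes, in and outside introns of coding genes, with 1 bar each for replicate 1, replicate 2 and the pooled list and 95% exact binomial intervals. Replicate 1 ranges from 22.4% in autosomal introns to 39.2% outside introns on X, and replicate 2 from 42.0% to 53.7%.

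Closeness to a coding promoter gave no pattern that both replicates shared. Of the 95 tRNA genes with a coding 5′ end within 500 bp, 38.9% had a pooled call (29.1 to 49.5), against 40% of the 517 farther away (35.8 to 44.4). The values were 38.9% and 30.8% in replicate 1, and 45.3% and 47.6% in replicate 2, and the intervals of near and far genes overlapped in each list. GC content over 200 bp averaged 45.7% ± 4.69 (SD, 244 genes) at genes with a pooled call and 45.3% ± 4.15 (368 genes) at genes without. The means with and without a call were 45.5% and 45.5% in replicate 1, and 46% and 45% in replicate 2.

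Genes with many identical copies had higher shares, with overlapping intervals in the pooled list. The 612 genes had 200 distinct sequences, 143 genes had a sequence of their own and the largest family had 29 identical copies. A pooled call lay at 48.7% of the 119 genes with 20 or more copies (39.5 to 58.1), 36.4% of those with 10 to 19, 43.4% of those with 2 to 9 and 33.6% of the 143 single ones (25.9 to 41.9). Replicate 1 had 38.7%, 34.8%, 30.9% and 23.8% in the same order, and replicate 2 had 55.5%, 49.5%, 46.1% and 38.5%. Beside these, all nuclear genes had 34.8% in the pooled list and in replicate 1, and 33.4% in replicate 2. Within each replicate the share thus fell step by step with fewer copies, while in the pooled list the order of the middle classes was reversed. The part of read placement among copies in these values was not tested. None of the 3 thresholded genes had a sequence of its own.

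Clustered genes had higher shares than solitary ones over the full lists, but among stronger calls the replicates did not always share the direction. Merging tRNA genes within 1000 bp of each other gave 480 loci, with at most 6 genes, and 382 genes were alone. A pooled call lay at 44.3% of the 230 genes with such a neighbour (37.8 to 51.0) and at 37.2% of the solitary genes (32.3 to 42.2). The values were 34.3% and 30.6% in replicate 1, and 49.6% and 45.8% in replicate 2, with overlapping intervals. The background of all nuclear genes was 34.8% in the pooled list and in replicate 1, and 33.4% in replicate 2. The strongest 1000 pooled calls marked 5.65% of the genes with a neighbour (3.04 to 9.47) and 1.31% of the solitary genes (0.426 to 3.03), intervals that lay apart. They marked 2.15% of all nuclear genes. In the strongest 1000 calls of each replicate the shares were 3.04% and 1.31% in replicate 1, and 5.65% and 4.45% in replicate 2. In the strongest 3000 they were 5.22% and 3.14% in replicate 1, but 8.26% and 10.7% in replicate 2. For all nuclear genes the replicate 1 shares were 1.93% at 1000 calls and 5.02% at 3000. Those of replicate 2 were 2.03% and 4.87%. All 3 thresholded genes had a neighbour. Neighbours can share a call, and the 18 genes in the strongest 1000 pooled calls stood for 13 distinct calls. The 244 genes with a pooled call had 204 distinct strongest calls, and 35 of these calls served more than 1 gene.

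By amino acid, tRNA-Cys genes had the highest pooled share and tRNA-Asn genes the lowest. Of 13 tRNA-Cys genes, 10 had a pooled call (76.9%, 46.2 to 95), with 46.2% in replicate 1 and 69.2% in replicate 2. Of 20 tRNA-Asn genes, 3 had one (15.0%, 3.21 to 37.9), with 25% in each replicate. The shares of all nuclear genes were 34.8% in the pooled list and in replicate 1, and 33.4% in replicate 2. For tRNA-Cys the interval lay above this background in the pooled list and replicate 2, but included it in replicate 1 (19.2 to 74.9). The pooled interval of tRNA-Asn included it. The tRNA-His genes were similarly low, at 20% in the pooled list, 10% in replicate 1 and 20% in replicate 2. The intervals of tRNA-Cys and tRNA-Asn did not overlap in the pooled list, but they were the extremes of 20 amino acids and their intervals overlapped in each replicate.

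The gap between the replicates was spread over the amino acids. In 16 of the 20 with at least 10 genes the share was higher in replicate 2, in 3 it was lower and in 1 it was equal. The widest gap was at tRNA-Gln genes, with 14.8% in replicate 1 and 63.0% in replicate 2 (27 genes). The tRNA-Gly genes had 20% and 54.5% (55 genes), and the tRNA-Thr genes, with little gap, 47.1% and 44.1% (34 genes). The 5 genes with no amino acid in the annotation had no pooled call, and the single selenocysteine gene had a call in each replicate list but none in the pooled list.

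**Figure D5:**
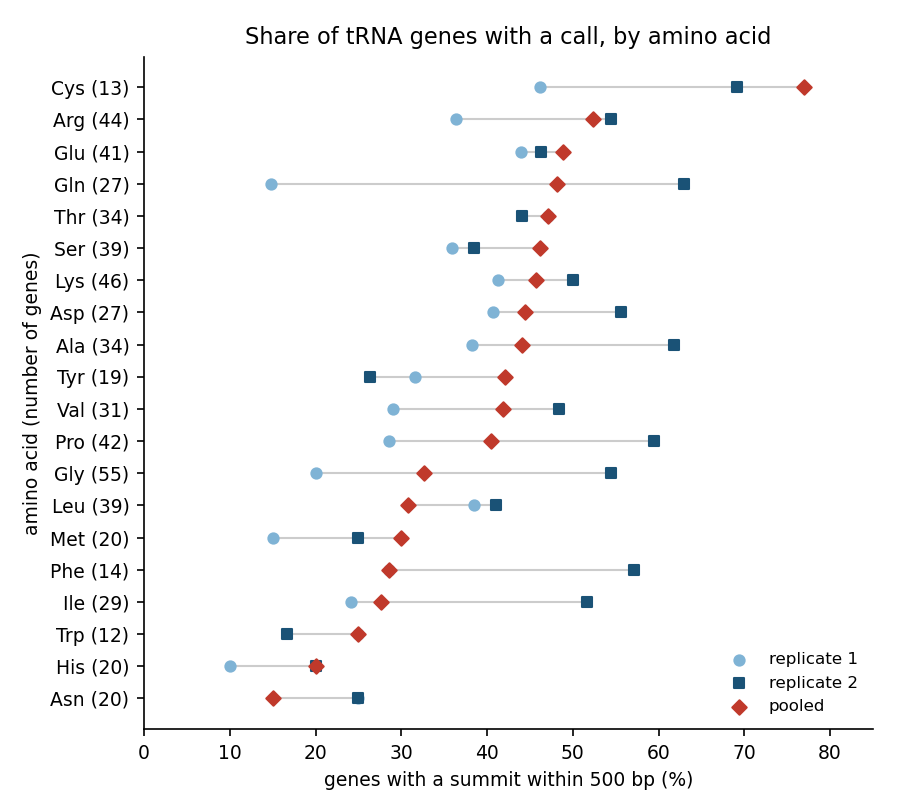
Share of tRNA genes with a summit within 500 bp (percent) for the 20 amino acids with at least 10 genes (number of genes in brackets), with 1 symbol each for replicate 1, replicate 2 and the pooled list, sorted by the pooled value; symbols with the same value overlie each other. Pooled values run from 76.9% for Cys to 15.0% for Asn, and the replicates differ most for Gln, at 14.8% and 63.0%.

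The words of the internal promoter were present in marked and unmarked genes alike. The B box word GTTCGANNC, searched on both strands, was in 442 of 612 tRNA genes (72.2%), 68.0% of those with a pooled call and 75% of those without. A pooled call lay at 37.6% of the 441 genes with the word on their own strand (33.1 to 42.3) and at 45.6% of the 171 genes without it (38 to 53.4). The replicates went opposite ways, with 32.9% and 29.8% in replicate 1 and 44.9% and 53.2% in replicate 2. The strongest 10000 pooled calls marked 15.4% of the genes with the word (12.2 to 19.1) and 24.6% of those without it (18.3 to 31.7), with overlapping intervals, against 14.7% of all nuclear genes. The word was in 0.356% of 29742 windows of 72 bases centred on the other nuclear pooled summits. The A box word TGGCNNAGT, which does not overlap it, was in 9.97% of tRNA genes and 0.525% of those windows, with 9.02% of genes with a pooled call and 10.6% of genes without. It is a narrow form of the element, so most tRNA genes lack these exact letters.

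Other genes read by RNA polymerase III or made into structural RNAs gave a mixed picture. The 129 snRNA genes, some of them RNA polymerase III genes, had a pooled call in 39.5% of cases (36.4% in replicate 1, 38.8% in replicate 2). Of the 20 nuclear rRNA genes, which include 5S copies, 1 had a pooled call (5%, 0.127 to 24.9). The snoRNA genes had 45.7% (42.2% in replicate 1, 46.8% in replicate 2), and the miRNA genes 28.0% (25.7% and 30.7%). All nuclear genes had a call in 34.8% of cases in the pooled list and in replicate 1, and 33.4% in replicate 2. The snoRNA intervals lay above this background in both replicates (36.9 to 47.6 and 41.5 to 52.2). The snRNA shares were above it in both, but their intervals included it (28.1 to 45.4 and 30.3 to 47.7). The tRNA share was above it in replicate 2 and not in replicate 1.

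The protein genes of tRNA synthesis were too few for a count to be set apart from the background. A list of 13 genes for RNA polymerase III subunits, its factors and tRNA maturation had 12 found by name, of which 0 had a thresholded summit, 7 a pooled call, 3 a call in replicate 1 and 6 a call in replicate 2. The shares of all protein-coding genes were 1.17%, 31.2%, 31.2% and 31.2% in the same order. The strongest in the pooled list was hoe-1, which encodes the tRNA 3′-end processing endonuclease, with rank 25765 in replicate 1, 3672 in replicate 2 and 3380 in the pooled list (signal 25.7). The polymerase subunit gene rpc-1 had no call in replicate 1, rank 3099 in replicate 2 and rank 11053 in the pooled list. The TATA-binding protein gene tbp-1 was rank 1433 in replicate 1 (signal 20.6), had no call in replicate 2 and was rank 15615 in the pooled list.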

How the data were processed

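Chromatin immunoprecipitation of tagged ZK546.5 had been done on 2 replicates, numbered as in the labels. Per the deposited file notes, the authors made each call list from the alignments of a replicate, or of both, and 1 control file, and derived the thresholded set from them by the irreproducible discovery rate procedure. The deposited signal values (column 7) are the caller's own, differ in scale between lists and were used only to rank calls within a list. The deposited q-value field (column 9), whose scale is not stated, was treated as a score and used in 1 alternative. The aligner, caller, threshold and antibody are not given in the sources used here. Depth, and the precision it gives, is unknown, since the files hold calls and no reads.

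Summits were taken as column 2 plus column 10 and set against 5′ ends of the Ensembl release 115 annotation of ce11. Amino acids were read from RefSeq's annotation of that assembly, matched by WormBase ID for 612 of 612 genes. The strongest call within 500 bp was kept per gene. A gene is in an intron where it lies inside an intron of a coding gene. Named genes were the thresholded ones, then those of highest pooled signal, the 3 next outside the limit and the highest of each chromosome. Alternatives varied the distance, the number of calls, overlap, merging, copies and replicate. The members and lists were chosen with earlier results of these data known. Lists on build ce10 were not used. The scripts, tested on simulated data, used Python 3.11.15, scipy 1.17.1, pandas 2.3.3, numpy 2.4.6 and matplotlib 3.10.9.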

Additional observations from a re-analysis of the deposited data

How the results depend on the processing

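The share of tRNA genes with a thresholded peak, 0.490%, was 0.163% with the stronger part of the thresholded peaks and 0 among genes with a sequence of their own, and 0.163% to 0.490% with 1 replicate left out. The pooled share of 39.9% was 26.3% within 250 bp, 55.9% within 1000 bp and 23.2% where the call had to overlap the gene. It was 18% with the strongest 10000 calls, 8.66% with the strongest 3000 and 15.0% within 100 bp, a distance added after the data were seen, and 32.0% to 47.2% with 1 replicate left out. The share with a call in both replicate lists, 19.6%, was 9.48%, 36.3% and 7.68% under the same 3 changes of distance or overlap, 14.0% among genes with a sequence of their own, 5.56% and 1.31% with the strongest 10000 and 3000 calls, and 3.76% within 100 bp. The difference between X and autosomes, 4.59 points, was 14.2 among genes with a sequence of their own and ran from -2.20 without replicate 1 to 8.98 without replicate 2. The difference between introns and outside, -8.15 points, ran from -11.8 without replicate 2 to 0.966 without replicate 1. The share of strongest pooled summits upstream of or inside the gene, 68.9%, was 75.8% within 250 bp, 60.5% within 1000 bp, 73.9% with overlap, 75.5% with the strongest 3000 calls and 47.9% among genes with a sequence of their own, and 61.2% to 67.8% with 1 replicate left out. The median rank, 11595, ran from 9220 to 12815 with 1 replicate left out and moved by less than the spread between replicates under every setting run. The cause of these shifts was not tested, beyond fewer calls or a shorter distance leaving fewer genes. No paired analysis was possible because the 2 replicates form 1 group. The fixed length of the lists and the unknown depth limit every share, and a gene without a call was not shown to lack signal.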
